A study of Mus musculus with 12 samples.

Results

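The 10 genes described here encode interferon-inducible GTPases: Gm4951, F830016B08Rik, Igtp, Irgm1, Irgm2, Iigp1, Tgtp1, Tgtp2, Gbp2 and Gbp3. They are 10 of the 55376 gene symbols counted in the series and were taken by symbol. Gm4951 and F830016B08Rik were picked on measured values, namely their strong rise in double mutants, and the 8 others because they belong to the same families, so the values of Gm4951 and F830016B08Rik are given as a description with no test, and every count of calls below is over the 8 others. RNA-Seq was run on oligodendrocytes sorted by FACS as single live cells negative for CD45, a protein of all leukocytes, and positive for O1, a surface lipid of maturing oligodendrocytes. All mice were C57BL/6 and their brains were taken at postnatal day 40, and each sample held the cells of 2 brains. There were 12 samples in 3 genotypes with 4 samples each. WT mice were wild type at these genes. Cnp-Cre Jab1fl/fl mice carried 2 floxed alleles of Jab1 (Cops5), a subunit of the COP9 signalosome, and a Cre recombinase expressed from the Cnp gene, which is active in late oligodendrocyte precursors and in oligodendrocytes. Double mutants, Cnp-Cre Jab1fl/fl p21CIP1-/-, had in addition a constitutive deletion of p21CIP1 (Cdkn1a), a cell cycle inhibitor, which every cell type of these mice lacks. The paper lists the p21CIP1 deletion under a different strain of origin, backcrossed for more than 10 generations. Both mutant genotypes therefore share the loss of Jab1, and no sample had the p21CIP1 deletion alone. The deposited values are raw read counts per gene, which were converted here to CPM (counts scaled to the library total, as counts per mega-count) with TMM library factors.

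Interferons are secreted proteins that signal through surface receptors and the JAK kinases to transcription factors of the STAT family, which enter the nucleus and, with factors of the IRF family, turn on a large set of genes. Immunity-related GTPases (IRGs) and guanylate-binding proteins (GBPs) are among the most strongly induced of these in mice. Effector IRGs such as Iigp1 (Irga6) and the Tgtp proteins (Irgb6) load onto the vacuoles in which intracellular pathogens live and break their membrane, GBPs join them there, and the regulatory IRGs Irgm1, Irgm2 and Igtp (Irgm3) sit on the membranes of the cell itself and keep the effectors inactive. In the brain these genes are low at rest and can be induced in glia, neurons and endothelial cells. Gm4951 and F830016B08Rik are less studied IRG genes of the group that contains Iigp1.

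Promoters of 7 members were matched by symbol in RefSeq (build GRCm38), and they are shown because a shared element just upstream of the start was common to all 7. The first window of each was searched on both strands from 250 bases before to 50 bases after the annotated start. The motifs were GAAA followed, after 2 bases of any kind, by a second GAAA, which resembles the interferon-stimulated response element (ISRE), and TTCNNNGAA, which resembles the gamma-activated site (GAS). Matches are in capitals, and the sequences run 5′ to 3′ on the strand of the gene.
Igtp, chr11:58199447-58199546, plus strand: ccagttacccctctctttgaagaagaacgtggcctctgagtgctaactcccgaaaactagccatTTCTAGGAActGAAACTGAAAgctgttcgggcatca
Irgm2, chr11:58214838-58214937, plus strand: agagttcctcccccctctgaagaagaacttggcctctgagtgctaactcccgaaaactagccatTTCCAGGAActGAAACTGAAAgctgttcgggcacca
Tgtp1, chr11:48992299-48992398, minus strand: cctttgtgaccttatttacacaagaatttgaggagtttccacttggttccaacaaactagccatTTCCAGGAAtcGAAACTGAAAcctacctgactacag
Tgtp2, chr11:49064258-49064357, minus strand: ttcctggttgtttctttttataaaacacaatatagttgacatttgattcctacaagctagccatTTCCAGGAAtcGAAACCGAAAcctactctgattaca
Irgm1, chr11:48871428-48871457, minus strand: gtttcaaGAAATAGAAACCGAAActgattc
Gbp2, chr3:142620591-142620620, plus strand: ggaactcttttagTTTCACTTTCactgtct
Gbp3, chr3:142559992-142560021, plus strand: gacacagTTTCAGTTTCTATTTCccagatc

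The ISRE-like match was found in the window of all 7 genes, 77 to 15 bases before the start, while 3.44% of all 32851 windows of this length and 3.99% of the 27025 genes in the table held one. In Irgm1 and Gbp3 there were 2 overlapping matches, and in Gbp2 and Gbp3 they lay on the reverse strand, so that they read as TTTC repeats. In Igtp, Irgm2, Tgtp1 and Tgtp2 a GAS-like match preceded the ISRE-like match with 2 bases between them, and 8.3% of all windows held this motif. Irgm1, Gbp2 and Gbp3 had no match to these letters in the window, and a second RefSeq start of Gbp3 had neither motif in its window. Over the 250 bases before the start, Igtp and Irgm2 were 69.9% identical and Tgtp1 and Tgtp2 65.3%, and the other pairs 48.6% to 56.4%. By GENCODE release M21, the match lay in an exon of a longer annotated transcript for Irgm1 and Gbp2 and between genes for Igtp and Gbp3. For Irgm2 and Tgtp1 it lay in an intron of the gene itself. For Tgtp2 it lay in an intron of another gene, which is on the opposite strand. These matches are letters in the reference genome and are not measurements of binding.

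**Figure D1:**
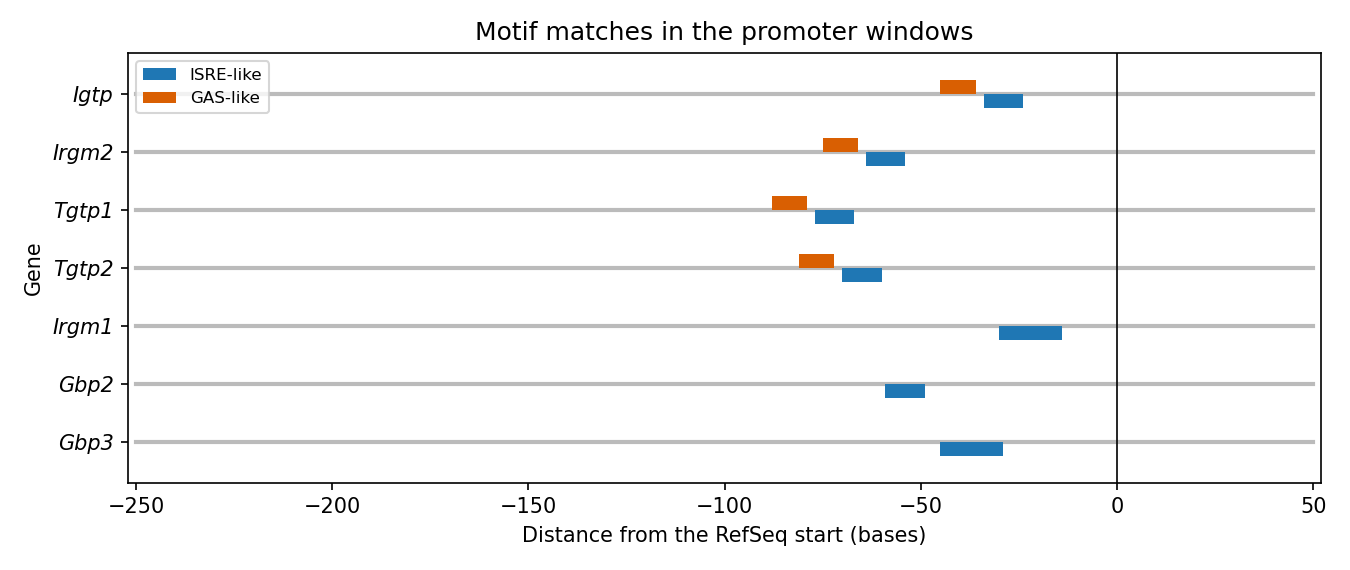
Positions of ISRE-like (blue) and GAS-like (orange) matches in the promoter windows of 7 GTPase genes, on the x axis in bases from the RefSeq start (0) and with 1 gene per line. Every window holds an ISRE-like match within 77 bases of the start, and in 4 genes a GAS-like match lies just before it.

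Total counts were 61485556 to 153495112 per sample, so 3 counts in the smallest sample equal 0.0488 CPM. Cnp, a myelin gene, was present in every sample at 227 CPM or more. Cre was expressed from the Cnp gene in both mutant genotypes, and whether this changed the level of Cnp was not tested. All 12 oligodendrocyte markers, Cnp among them, were tested. The sums of these markers were 45970 to 106735 CPM in WT, 9050 to 35467 CPM in Cnp-Cre Jab1fl/fl and 16963 to 53156 CPM in double mutants. The mean of Cops5 was 103 ± 39.7 CPM in WT samples (SD, n = 4) and 66.9 ± 18.0 CPM in Cnp-Cre Jab1fl/fl, with a log2 fold change of -0.62 (SE 0.36, edgeR adjusted p = 0.349), and Cdkn1a was at 41.6 ± 31.4 CPM in WT and 452 ± 124 CPM in Cnp-Cre Jab1fl/fl. It was still counted in double mutants at 88.4 ± 17.9 CPM (SD, n = 4), with a log2 fold change of -2.35 (SE 0.32, edgeR adjusted p = 0.0916) against Cnp-Cre Jab1fl/fl and of 1.08 (SE 0.48, edgeR adjusted p = 0.394) against WT. Counts of a whole gene include the exons that were not deleted and do not check these labels. Some libraries stood apart: double-mutant replicate 3 had 18261 CPM of 14 microglia markers and 123 CPM of 4 neutrophil markers, where the other samples had at most 2690 CPM and 1.05 CPM. Double-mutant replicate 1 was the mutant sample nearest to WT in many values. In WT replicate 5 most members were at their lowest.

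All 10 genes passed the filter of at least 1 CPM in at least 4 samples, Gm4951 and F830016B08Rik only through the mutant samples. Of the 8 genes not picked on their own values, 5 rose in Cnp-Cre Jab1fl/fl relative to WT: Iigp1, Tgtp1, Irgm1, Igtp and Gbp3. Among all 17716 genes tested, 5.19% rose by the same rule (edgeR's quasi-likelihood test, Benjamini-Hochberg adjusted p below 0.05 over all genes). Tgtp2, Gbp2 and Irgm2 did not pass the threshold, though their fitted values were also above 0. All 8 had an unadjusted p below 0.05 in edgeR, with 22.5% of all genes in either direction. The median log2 fold change was 3.08 over these 8 genes and 0.02 over all genes tested. For 7 of the 8 genes all Cnp-Cre Jab1fl/fl samples were above all WT samples, which held for 9.9% of all genes. DESeq2 called 6 of the 8, adding Tgtp2, where it called 9.52% of all genes as higher. Gm4951 and F830016B08Rik were higher in every Cnp-Cre Jab1fl/fl sample than in any WT sample, and since they were picked against the same WT samples this is a description.

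**Figure D2:**
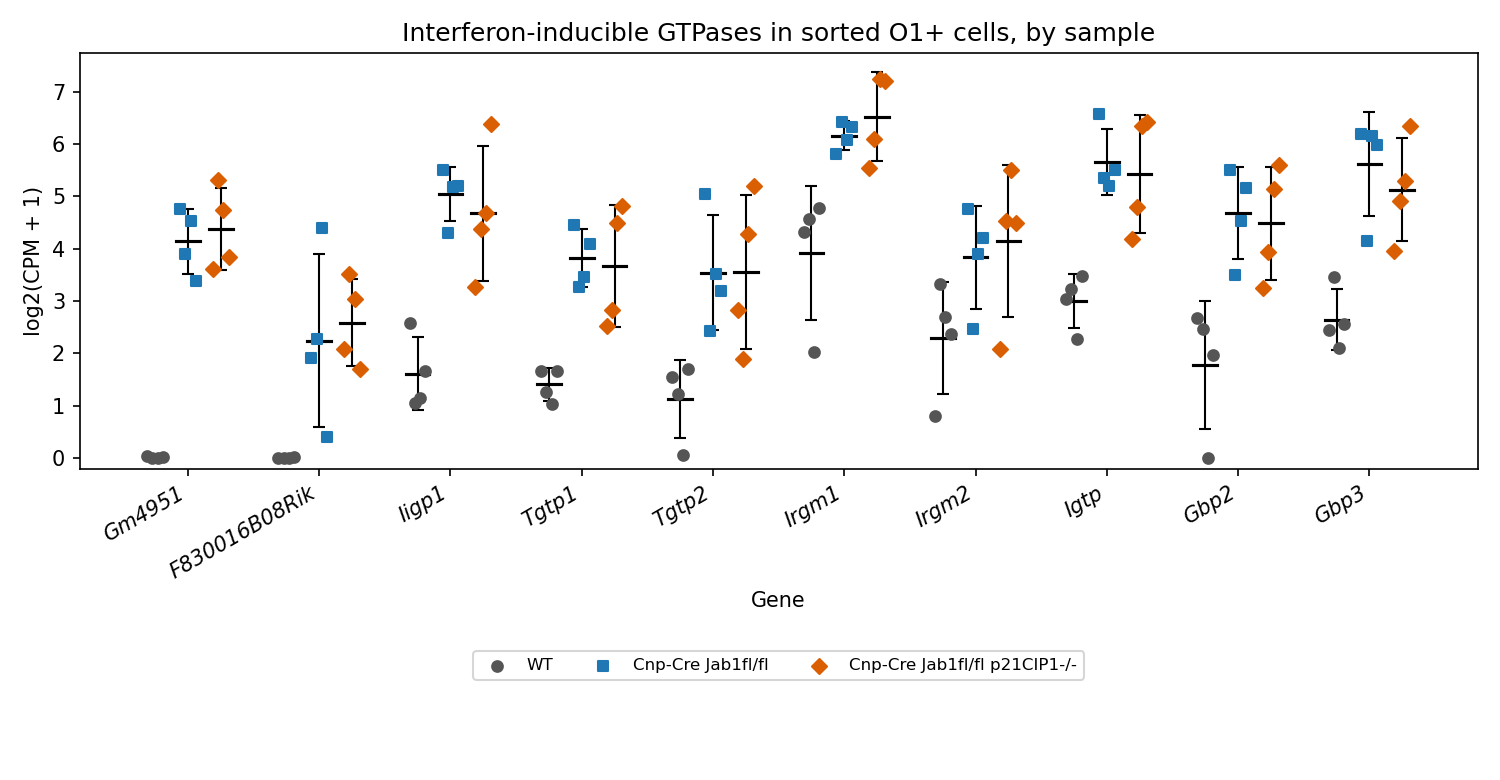
Level of each of the 10 genes as log2(CPM + 1) on the y axis, with 1 point per sample, coloured by genotype, and the mean and SD of 4 samples in black. Both mutant genotypes lie above WT in every gene except Irgm2, where single mutant samples fall into the WT range, and the WT samples of Gm4951 and F830016B08Rik are at or near 0.

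The regulatory IRG genes Irgm1 and Igtp had the highest mean levels per kilobase of the 10 genes in all genotypes. Irgm1, which controls the effector IRGs and takes part in autophagy, lies on chromosome 11 from 48861968 to 48871683 on the minus strand (GRCm38). It was at 18.9, 22.8, 3.06 and 26.6 CPM in WT replicates 1, 3, 5 and 6, at 54.8, 84.7, 66.9 and 79.3 CPM in Cnp-Cre Jab1fl/fl replicates 1 to 4, and at 45.7, 67.3, 151 and 148 CPM in double-mutant replicates 1, 2, 3 and 5. WT replicate 5 stood well below the other WT samples, and the groups of mutants did not overlap with WT. In Cnp-Cre Jab1fl/fl the log2 fold change against WT was 2.002 (SE 0.53, edgeR adjusted p = 0.0425), close to the threshold. It did not pass in 7 of the 8 fits that left out 1 sample, with adjusted p from 0.0575 to 0.0902, and passed without WT replicate 5. Per kilobase of exon, Irgm1 was at 7.74 ± 4.49 CPM in WT, 31.0 ± 5.79 in Cnp-Cre Jab1fl/fl and 44.7 ± 23.6 in double mutants (SD, n = 4 each), the highest mean of the 10 genes in each.

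Igtp (Irgm3) was called with a wide margin. It lies on chromosome 11 from 58199556 to 58207591 on the plus strand. Its levels were 7.24, 8.34, 3.83 and 10.2 CPM in WT replicates 1, 3, 5 and 6 and 94.4, 40.0, 35.7 and 44.5 CPM in Cnp-Cre Jab1fl/fl replicates 1 to 4. In double-mutant replicates 1, 2, 3 and 5 they were 17.1, 26.7, 80.6 and 84.8 CPM. No mutant sample reached down to the WT range, and in the double mutants replicates 1 and 2 were far below replicates 3 and 5. The log2 fold change in Cnp-Cre Jab1fl/fl against WT was 2.86 (SE 0.44, edgeR adjusted p = 0.00453), and Igtp was called in all 16 alternative fits of this comparison.

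Irgm2, the third regulatory gene, overlaps Igtp on the same strand (58199618 to 58222782) and shares 162 exon bases with it, so reads from these bases cannot be assigned to 1 gene. It was at 0.743, 8.97, 5.50 and 4.16 CPM in WT replicates 1, 3, 5 and 6. In Cnp-Cre Jab1fl/fl replicates 1 to 4 it was at 26.2, 4.50, 14.0 and 17.5 CPM, and in double-mutant replicates 1, 2, 3 and 5 at 3.24, 21.98, 44.4 and 21.6 CPM. Cnp-Cre Jab1fl/fl replicate 2 and double-mutant replicate 1 were inside the WT range, and Irgm2 was the only member whose mutant and WT samples overlapped. Its log2 fold change in Cnp-Cre Jab1fl/fl, 1.68 (SE 0.75, edgeR adjusted p = 0.207), was within the spread between samples.

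The Tgtp genes encode effector IRGs of nearly the same sequence. They lie on the minus strand of chromosome 11, Tgtp1 from 48985327 to 48994172 and Tgtp2 from 49057194 to 49064206. Of the stretches of 100 bases in their transcripts, 83.3% in Tgtp1 and 80.4% in Tgtp2 also occur in another gene, mostly the other copy, so the division of counts between them is uncertain. Tgtp1 shares 223 exon bases with Gm12185 as well. Their sum was 4.11, 2.74, 1.09 and 4.45 CPM in WT replicates 1, 3, 5 and 6. It was 52.9, 13.0, 20.4 and 24.3 CPM in Cnp-Cre Jab1fl/fl replicates 1 to 4 and 10.8, 8.86, 40.0 and 63.1 CPM in double-mutant replicates 1, 2, 3 and 5. All mutant samples were above all WT samples. On the scale of log2(CPM + 1) the sum was 4.66 ± 0.81 in Cnp-Cre Jab1fl/fl and 1.94 ± 0.63 in WT (SD, n = 4). The difference of 2.72 had p = 0.0286 in an exact permutation test (two-sided), which is the lowest value that 70 relabelings can give. Taken alone, Tgtp1 rose in Cnp-Cre Jab1fl/fl with a log2 fold change of 3.03 (SE 0.58, edgeR adjusted p = 0.0115), from a mean of 1.70 to 13.9 CPM. Tgtp2 had a log2 fold change of 3.30 with a larger error (SE 1.03, edgeR adjusted p = 0.0785), and its WT replicate 5 had 4 counts where the other WT samples had 207 to 213.

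The guanylate-binding proteins Gbp2 and Gbp3 assemble on pathogen membranes. Their genes are neighbours on the plus strand of chromosome 3, Gbp3 from 142560026 to 142573209 and Gbp2 from 142620602 to 142638008, where 24 exon bases of Gbp2 overlap Mir6381 on the other strand. Gbp3 was at 4.45, 10.05, 3.28 and 4.88 CPM in WT replicates 1, 3, 5 and 6, at 71.9, 16.7, 70.4 and 62.6 CPM in Cnp-Cre Jab1fl/fl replicates 1 to 4, and at 14.6, 29.0, 38.5 and 79.9 CPM in double-mutant replicates 1, 2, 3 and 5. Cnp-Cre Jab1fl/fl replicate 2 was far below the other samples of its genotype, but above WT. Gbp3 rose in Cnp-Cre Jab1fl/fl with a log2 fold change of 3.29 (SE 0.53, edgeR adjusted p = 0.00569) and was called in all 16 alternative fits.

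Gbp2 behaved alike in direction but was more variable in WT. It was at 5.39, 4.50, 0 and 2.91 CPM in WT replicates 1, 3, 5 and 6, and the 0 of replicate 5 stands against 269 to 696 counts in the other WT samples. In Cnp-Cre Jab1fl/fl replicates 1 to 4 it was at 44.6, 10.4, 22.1 and 35.0 CPM and in double-mutant replicates 1, 2, 3 and 5 at 8.58, 14.3, 34.4 and 47.3 CPM. No mutant sample overlapped with WT. The log2 fold change of Gbp2 in Cnp-Cre Jab1fl/fl was 3.13 (SE 1.14, edgeR adjusted p = 0.127), which did not pass the threshold with all samples and did without WT replicate 5, at 2.71 (edgeR adjusted p = 0.0331).

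Iigp1 (Irga6) is the best known effector IRG and lies on chromosome 18 from 60376027 to 60392634 on the plus strand. It was at 5.01, 1.07, 1.22 and 2.19 CPM in WT replicates 1, 3, 5 and 6. Levels of 44.6, 18.8, 35.4 and 35.8 CPM were found in Cnp-Cre Jab1fl/fl replicates 1 to 4 and of 8.63, 19.9, 24.5 and 82.5 CPM in double-mutant replicates 1, 2, 3 and 5. The lowest mutant sample was above the highest WT sample, and the double mutants were spread over a 9.56-fold range against 2.37-fold in Cnp-Cre Jab1fl/fl. Among the 8 genes not picked on their own values, Iigp1 had the largest fitted increase in Cnp-Cre Jab1fl/fl, with a log2 fold change of 3.83 (SE 0.59, edgeR adjusted p = 0.0045).

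Gm4951 and F830016B08Rik lie upstream of Iigp1 on the same strand of chromosome 18, from 60212080 to 60247820 and from 60293380 to 60303016. Almost none of their sequence is shared with other genes (0% and 0.13% of stretches of 100 bases). They were the members that were nearly silent in WT: Gm4951 had 3, 0, 0 and 1 counts in WT replicates 1, 3, 5 and 6, and F830016B08Rik had 0, 0, 0 and 1. Gm4951 was at 25.9, 13.8, 22.2 and 9.41 CPM in Cnp-Cre Jab1fl/fl replicates 1 to 4 (700 to 2037 counts) and at 11.3, 38.8, 25.8 and 13.3 CPM in double-mutant replicates 1, 2, 3 and 5 (1055 to 4902 counts). Every mutant sample thus held far more counts than any WT sample, and both mutant genotypes covered a similar range. From the pooled counts the ratio to WT was 1986 in Cnp-Cre Jab1fl/fl (95% interval 776 to 7291) and 2706 in double mutants (95% interval 1057 to 9932). The intervals are exact Poisson intervals of the 4 WT counts, cover counting error only and leave out the spread between mice. As Gm4951 was picked for its rise in double mutants, they are no test of a rise. As 3 of the 4 counts were in WT replicate 1, the ratios without it were 6034 (95% interval 1083 to 238317) and 8219 (95% interval 1475 to 324643), and without WT replicate 3, which had none, they were 1316 and 1793.

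F830016B08Rik was lower and more uneven. It was at 2.75, 3.82, 20.2 and 0.323 CPM in Cnp-Cre Jab1fl/fl replicates 1 to 4 and at 3.25, 10.5, 7.18 and 2.27 CPM in double-mutant replicates 1, 2, 3 and 5. Cnp-Cre Jab1fl/fl replicate 4 had only 24 counts, and the range within this genotype was 62.5-fold against 4.63-fold in double mutants. With a single count in all of WT, its pooled ratio to WT of 2782 in Cnp-Cre Jab1fl/fl has a counting interval from 499 to 109892, and that of 2835 in double mutants one from 509 to 111974. Without Cnp-Cre Jab1fl/fl replicate 3, the highest sample, the first ratio was 1174 (95% interval 211 to 46363), and without WT replicate 3 the ratios were 1843 and 1878. Without WT replicate 6 no WT count was left. Set against 3 counts over the other WT samples, the pooled ratio was 741 in Cnp-Cre Jab1fl/fl and 755 in double mutants. These values allow for counting error in WT only and leave out the spread between samples. As F830016B08Rik was picked for its rise in double mutants, they are no test of a rise. F830016B08Rik reached 3.43% to 90.8% of the CPM of Gm4951 in Cnp-Cre Jab1fl/fl samples and 17.1% to 28.8% in double-mutant samples.

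Double mutants were compared with WT as a description, since this is the comparison on which Gm4951 and F830016B08Rik were picked and it shares its WT samples with the one above. Fitted log2 fold changes of the 8 other genes were 2.23 (Irgm2) to 3.83 (Iigp1), with a median of 2.93. For Igtp the value was 2.81 (SE 0.57), for Irgm1 2.52 (SE 0.63) and for Gbp3 2.83 (SE 0.58). Again 7 of these 8 genes had no overlap with WT and were higher, where 4.52% of all genes did. By edgeR 0 of the 8 were past the threshold of 0.05 as higher, with 0.175% of all genes past it, while 8 of 8 had an unadjusted p below 0.05, with 12.4% of all genes in either direction. By DESeq2 6 of the 8 were past the threshold, with 3.74% of all genes. Without double-mutant replicate 1 edgeR had 4 of the 8 past the threshold, in a fit in which 1.14% of all genes were past it as higher.

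The deletion of p21CIP1 in Jab1 mutants was addressed by comparing double mutants directly with Cnp-Cre Jab1fl/fl. None of the 8 genes tested here was called by edgeR or DESeq2, and 0 of 8 had an unadjusted p below 0.05 in edgeR. Among all genes edgeR called 0 (0%), with 885 at an unadjusted p below 0.05, and DESeq2 87 (0.491%). The fitted log2 fold changes of the 8 genes ran from -0.45 for Gbp3 (95% interval -1.69 to 0.79) to 0.55 for Irgm2 (95% interval -1.03 to 2.13). For Iigp1 the interval was -1.33 to 1.35 around 0.01, for Igtp -1.23 to 1.16 around -0.04 and for Irgm1 -0.36 to 1.42 around 0.53. These intervals include no difference and also differences of more than 2-fold in at least 1 direction. The sum of Tgtp1 and Tgtp2 differed by -0.10 on the scale of log2(CPM + 1) (p = 0.914 in the same exact permutation test). Values of both genotypes overlapped in all 8 genes, and also in Gm4951 and F830016B08Rik, while 3.22% of all genes had no overlap in either direction. For Gm4951 the mean was 22.3 ± 12.8 CPM (SD, n = 4) in double mutants and 17.9 ± 7.57 CPM in Cnp-Cre Jab1fl/fl, and for F830016B08Rik 5.80 ± 3.79 and 6.77 ± 9.05 CPM.

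**Figure D3:**
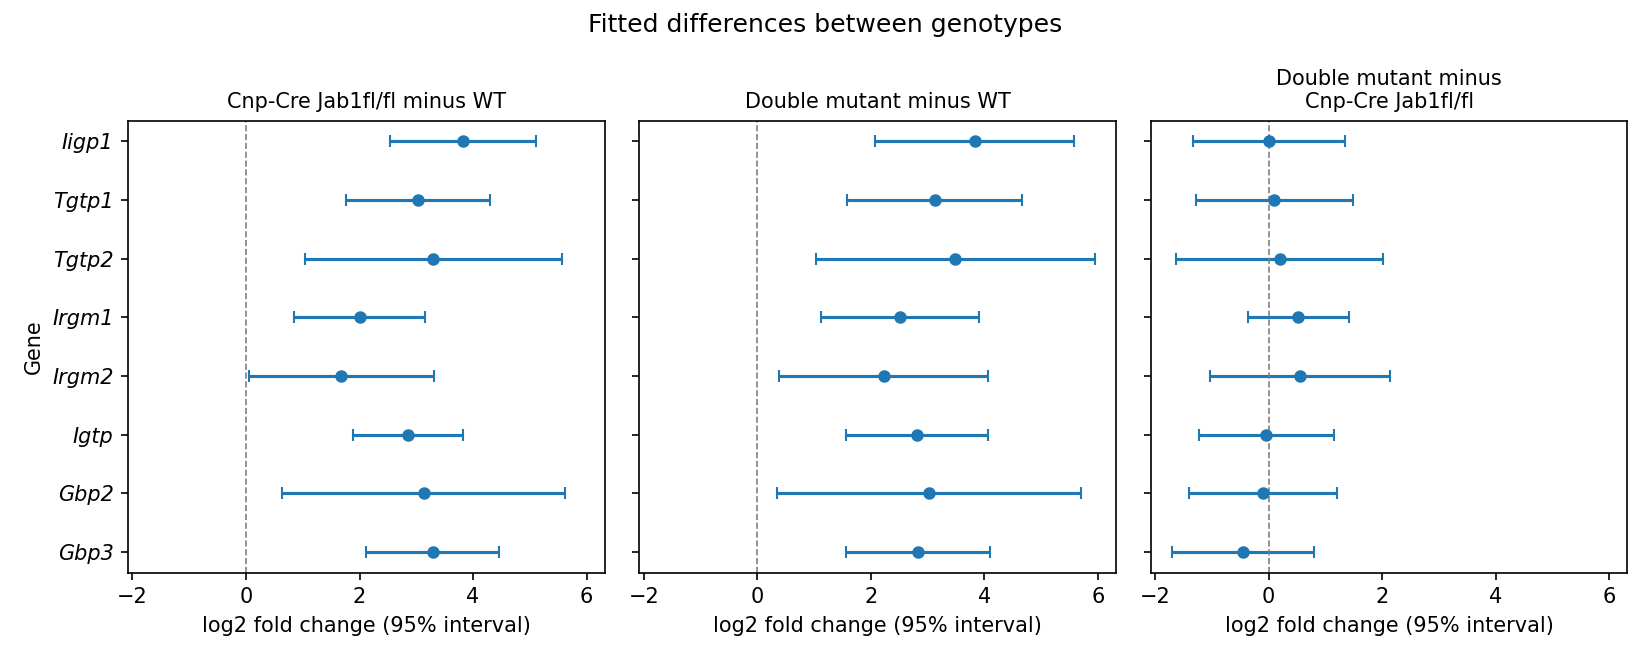
Fitted log2 fold change (points, x axis) with its 95% interval (bars) from edgeR for 8 GTPase genes (y axis) in the 3 comparisons of genotypes, n = 4 samples each. Against WT all points are above 0, and between the mutant genotypes every interval includes 0. Gm4951 and F830016B08Rik, which were picked on their values, are left out.

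Set side by side per kilobase of exon, the mean levels in Cnp-Cre Jab1fl/fl were 31.0 CPM for Irgm1, 26.5 for Igtp, 18.1 for Gbp3, 11.1 for Gbp2, 10.8 for Iigp1, 6.75 for Gm4951, 4.93 for Tgtp1, 4.89 for Tgtp2, 4.21 for Irgm2 and 2.05 for F830016B08Rik. Irgm1, Igtp and Gbp3 were the highest 3 in all genotypes. Of the 9 steps between neighbours in this order, the step from Iigp1 to Gm4951 was larger than the SD of the levels, and the other 8 were within it. In WT 2 of 9 steps were larger than the SD, that from Igtp at 3.66 CPM per kilobase to Gbp3 at 1.85 and that from Tgtp2 at 0.497 to Gm4951 at 0.00359. In double mutants 0 of 9 were, with means from 44.7 CPM per kilobase for Irgm1 to 1.76 for F830016B08Rik.

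The samples were not ordered alike in all members. Of the 8 genes not picked on their own values, 7 were highest in replicate 1 among Cnp-Cre Jab1fl/fl samples and 6 were lowest in replicate 2. Among double mutants 7 were lowest in replicate 1 and 6 highest in replicate 5. Gm4951 was likewise highest in replicate 1 among Cnp-Cre Jab1fl/fl samples and lowest in replicate 1 among double mutants, and F830016B08Rik was highest in Cnp-Cre Jab1fl/fl replicate 3 and lowest in double-mutant replicate 5. Both were highest in double-mutant replicate 2, in which 7 of the 8 others were lowest or second lowest, and lowest in Cnp-Cre Jab1fl/fl replicate 4. The sum of the 8 genes was 389, 188, 265 and 299 CPM in Cnp-Cre Jab1fl/fl replicates 1 to 4 and 109, 188, 414 and 527 CPM in double-mutant replicates 1, 2, 3 and 5, against 18.0 to 58.5 CPM in WT. Gm4951 and F830016B08Rik summed to 28.7, 17.7, 42.4 and 9.74 CPM and to 14.5, 49.3, 32.9 and 15.6 CPM in the same mutant samples.

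Markers of endothelial cells, mural cells and microglia were higher in Cnp-Cre Jab1fl/fl. Within each mutant genotype, the endothelial sums followed the order of the samples in the summed GTPases. The sum of 8 endothelial markers was 412 to 938 CPM in WT, 4890, 846, 2569 and 3732 CPM in Cnp-Cre Jab1fl/fl replicates 1 to 4 and 698, 1021, 3262 and 4673 CPM in double-mutant replicates 1, 2, 3 and 5, and 4 of the 8 markers rose in Cnp-Cre Jab1fl/fl. Within each mutant genotype this is the same order of samples as for the sum of the 8 GTPase genes. In WT both sums were lowest in replicate 5, but the endothelial sum was highest in replicate 1 and the GTPase sum in replicate 3. Cnp-Cre Jab1fl/fl replicate 2 and double-mutant replicate 1 had endothelial sums inside the WT range, and their sums of the 8 GTPase genes, 188 and 109 CPM, were above the highest WT sum of 58.5 CPM. For 5 mural cell markers the sums were 251 to 454 CPM in WT, 947 to 1651 CPM in Cnp-Cre Jab1fl/fl, where 3 of 5 rose, and 279 to 1626 CPM in double mutants. Their order was that of the GTPases in double mutants but not in Cnp-Cre Jab1fl/fl, where replicate 4 was highest and replicate 3 lowest. The 14 microglia markers summed to 95.8 to 273 CPM in WT, and all 14 rose in Cnp-Cre Jab1fl/fl. The microglia sums were 2613, 1086, 1853 and 2690 CPM in Cnp-Cre Jab1fl/fl replicates 1 to 4. In double-mutant replicates 1, 2, 3 and 5 they were 386, 885, 18261 and 2043 CPM, so no mutant sample was within the WT range. Like the GTPase sums, they were lowest in Cnp-Cre Jab1fl/fl replicate 2, then replicate 3, and in double-mutant replicate 1, then replicate 2. They were highest in Cnp-Cre Jab1fl/fl replicate 4 and double-mutant replicate 3, and the GTPase sums in replicates 1 and 5. Ptprc, which encodes the CD45 that the sort excluded, rose too, from 0 to 1.53 CPM in WT to 31.7 to 107 CPM in Cnp-Cre Jab1fl/fl, and was at 3.11 to 101 CPM in double mutants. In double-mutant replicate 3, with the most microglia marker RNA, the 8 GTPase genes summed to 414 CPM, less than the 527 CPM of replicate 5, which had 2043 CPM of those markers. Sums of 9 T and NK cell markers were 1.45 to 4.94 CPM in WT and 1.45 to 13.4 CPM in Cnp-Cre Jab1fl/fl, and those of 7 border macrophage and monocyte markers were 4.44 to 9.05 and 6.20 to 27.0 CPM. Of the oligodendrocyte markers 8 of 12 fell, Cnp among them. Sums of all 12 were 33439, 35467, 9050 and 18667.5 CPM in Cnp-Cre Jab1fl/fl replicates 1 to 4. In double-mutant replicates 1, 2, 3 and 5 they were 53156, 31506, 26804 and 16963 CPM, the reverse of the order of the GTPase sums. In Cnp-Cre Jab1fl/fl they were highest in replicate 2, where the GTPase sum was lowest, and lowest in replicate 3. In WT they were highest in replicate 5, where the GTPase sum was lowest. Of the astrocyte and neuron markers, 0 of 7 and 0 of 8 were called by edgeR. At an unadjusted p below 0.05 were 2 astrocyte and 3 neuron markers, and 22.5% of all genes. The astrocyte markers summed to 4868 to 11026.5 CPM in WT, 3006 to 7586 CPM in Cnp-Cre Jab1fl/fl and 3479 to 9742 CPM in double mutants. The neuron markers had a median log2 fold change of 1.498 in Cnp-Cre Jab1fl/fl and 1.67 in double mutants against WT, and their sums were 141 to 241 CPM in WT, 261, 685, 220.0 and 265 CPM in Cnp-Cre Jab1fl/fl replicates 1 to 4 and 216 to 668 CPM in double mutants. In Cnp-Cre Jab1fl/fl they were thus highest in replicate 2, where the sum of the 8 GTPase genes was lowest. In double-mutant replicates 1, 2, 3 and 5 the neuron sums were 216, 308, 303 and 668 CPM. There they were lowest in replicate 1 and highest in replicate 5, as were the sums of the 8 GTPase genes. The part of these cell types in the GTPase values was not tested, and in such bulk samples a larger share of cells of one type and more RNA per cell cannot be told apart.

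**Figure D4:**
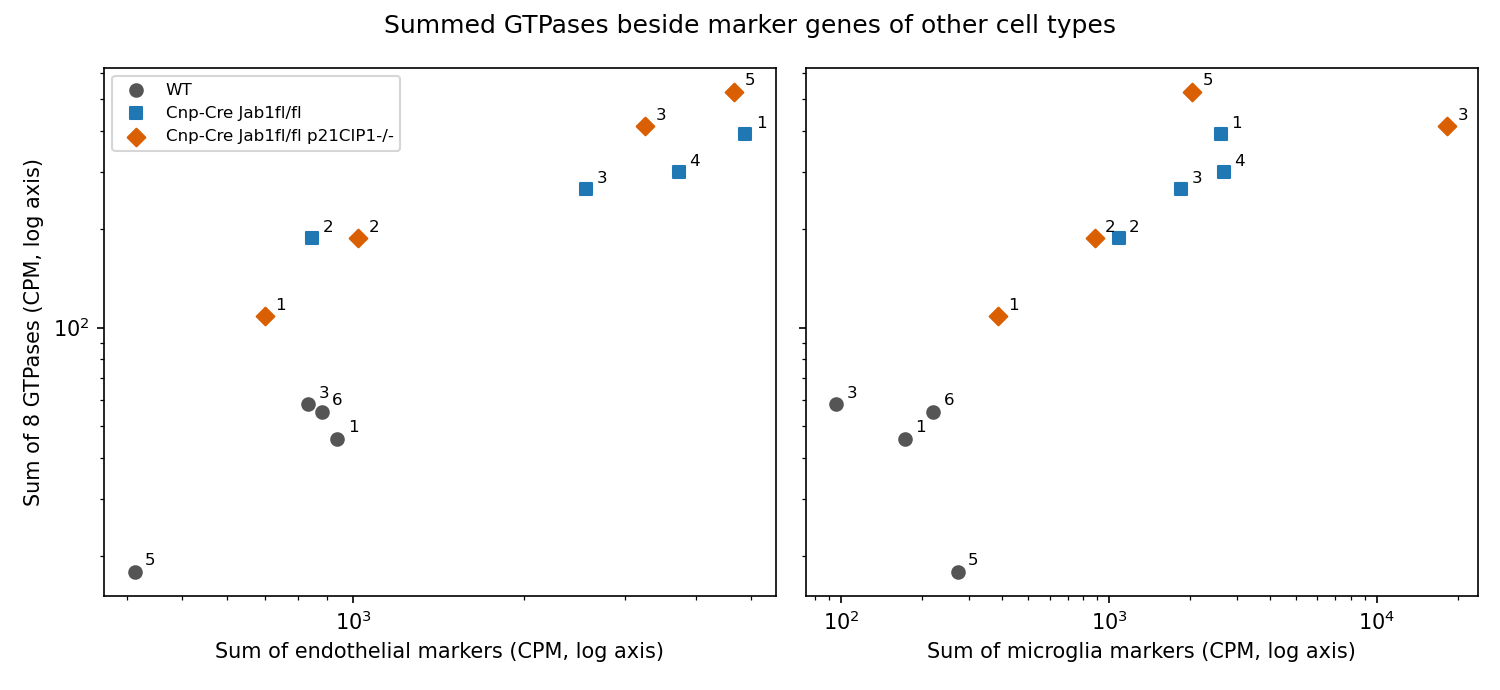
Sum of the 8 GTPase genes other than Gm4951 and F830016B08Rik (y axis, CPM, log axis) against the sum of 8 endothelial (left) or 14 microglia markers (right; x axes, CPM, log axes), with 1 point per sample, numbered by replicate. Cnp-Cre Jab1fl/fl replicate 2 and double-mutant replicate 1 lie within the WT range of endothelial markers and above all WT samples in the GTPases, and double-mutant replicate 3 is far to the right for microglia markers.

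Other genes of the pathway were counted from lists of its parts. The interferon ligands were not found at a level that could be tested: of 7 ligand genes only Ifng (interferon-gamma) had any counts, 42 in WT replicate 1 and 0 in the other 11 samples, and a count of 0 allows up to 3 counts, or 0.0488 CPM in the smallest sample. Of 4 receptor genes tested, Ifnar2, a chain of the type I interferon receptor, rose in Cnp-Cre Jab1fl/fl (log2 fold change 1.14, SE 0.29, edgeR adjusted p = 0.0368). The chains of the interferon-gamma receptor were at 0.83 for Ifngr2 (SE 0.40, edgeR adjusted p = 0.255) and 0.52 for Ifngr1 (SE 0.27, edgeR adjusted p = 0.284). The median log2 fold change of the 4 receptor genes was 0.67.

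Signal transducers were higher for 2 of 7 genes. Irf9, a factor of the complex that binds the ISRE, was at 12.1 to 35.6 CPM in WT and 76.3 to 110.4 CPM in Cnp-Cre Jab1fl/fl and rose by 2.08 on the log2 scale (SE 0.35, edgeR adjusted p = 0.00695), and Irf8, a factor of microglia and other myeloid cells, by 5.09 (SE 0.45, edgeR adjusted p = 4.17e-04). Stat2, a transcription factor of type I interferon signalling, was at 1.15 (SE 0.40, edgeR adjusted p = 0.113). Irf1, which acts on many interferon-gamma genes including GBPs, was at 1.40 (SE 0.51, edgeR adjusted p = 0.126). None of the JAK kinases of the list was called. Of 4 inhibitors, Usp18, which dampens type I signalling, rose by 3.89 (SE 0.43, edgeR adjusted p = 0.00114), while Socs3 was at 2.25 (SE 0.69, edgeR adjusted p = 0.0743) and Ptpn2 at 0.35 (SE 0.31, edgeR adjusted p = 0.567).

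Among the other GTPases of these families, 1 of 4 IRG genes, 4 of 7 GBP genes and 2 of 3 genes of the Mx and very large inducible GTPases rose, and none fell. The IRG gene called was 9930111J21Rik2 (log2 fold change 4.86, SE 0.69, edgeR adjusted p = 0.00331), while Gm12250 (3.46, SE 1.85, edgeR adjusted p = 0.302) and 9930111J21Rik1 (2.17, SE 1.73, edgeR adjusted p = 0.515) were not. The GBP genes with the smallest p were Gbp7 (log2 fold change 2.60, SE 0.41), Gbp9 (3.81, SE 0.74) and Gbp4 (3.76, SE 0.996), with edgeR adjusted p of 0.00471, 0.0118 and 0.0426. Mx2, an antiviral GTPase, rose by 3.12 (SE 0.54, edgeR adjusted p = 0.00754) and Gvin1 by 4.37 (SE 1.16, edgeR adjusted p = 0.0435), and Mx1 was at 6.27 (SE 1.80, edgeR adjusted p = 0.0577).

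In the list of other interferon-stimulated genes 14 of 20 rose, with a median log2 fold change of 3.08. Bst2, which tethers budding virus to the cell, rose by 3.31 (SE 0.41, edgeR adjusted p = 0.00171), Ifit1, which binds viral RNA, by 3.47 (SE 0.43, edgeR adjusted p = 0.0018) and Oas2, a sensor of double-stranded RNA, by 4.72 (SE 0.64, edgeR adjusted p = 0.00264). Of the autophagy conjugation system, which places IRGs and GBPs on membranes, 0 of 10 genes were called by edgeR and 2 had an unadjusted p below 0.05, with a list median of -0.06. Over all genes 5.19% were called as higher and 2.46% as lower, so that 0 of 10 is near the share of all genes. Of these, Atg16l1 was at -0.92 (SE 0.30, edgeR adjusted p = 0.0944), Atg7 at -1.09 (SE 0.42, edgeR adjusted p = 0.148) and Atg5 at 0.62 (SE 0.32, edgeR adjusted p = 0.273). In double mutants against WT 1 gene of these lists passed the threshold, Ifit1, in a comparison in which edgeR called few genes at all.

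In double mutants against Cnp-Cre Jab1fl/fl edgeR called 0 of the 59 genes of these lists, with 6 at an unadjusted p below 0.05, 5 of them lower. Of all genes tested 5.0% had an unadjusted p below 0.05 in edgeR. DESeq2 called 3 of the 59, all lower in double mutants: Oas2 (log2 fold change -3.10, SE 0.56, DESeq2 adjusted p = 3.85e-05), Mx1 (-3.22, SE 0.79, DESeq2 adjusted p = 0.0132) and 9930111J21Rik2 (-2.15, SE 0.58, DESeq2 adjusted p = 0.0458). Over all genes DESeq2 called 0.113% as higher and 0.378% as lower, so lower calls were the more frequent there too. Oas2 was at 17.7, 15.1, 38.4 and 13.0 CPM in Cnp-Cre Jab1fl/fl replicates 1 to 4, at 1.57, 2.36, 2.42 and 3.32 CPM in double-mutant replicates 1, 2, 3 and 5 and at 0.326 to 1.14 CPM in WT. All double mutants were thus below all Cnp-Cre Jab1fl/fl samples and above all WT samples for this gene. By edgeR the differences of Oas2, Mx1 and 9930111J21Rik2 were -3.12, -3.25 and -2.17 on the log2 scale, with edgeR adjusted p of 0.298, 0.713 and 0.751.

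**Figure D5:**
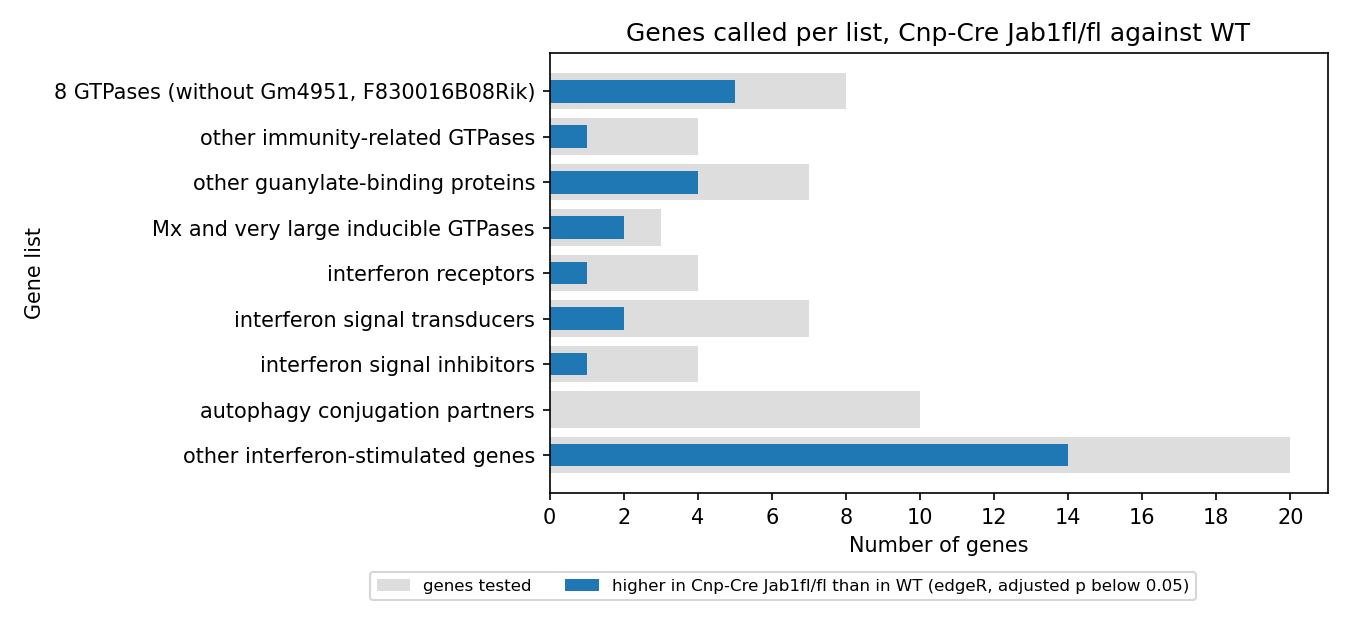
Number of genes tested (grey) and number higher in Cnp-Cre Jab1fl/fl than in WT (blue; edgeR adjusted p below 0.05) on the x axis, for the 8 GTPases not picked on their own values and the lists of pathway genes on the y axis. 5 of the 8 GTPases and 14 of 20 other interferon-stimulated genes are called, and 0 of 10 genes of the autophagy conjugation system.

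The genes whose pattern over the 12 samples was most like that of Gm4951 were searched among the 17716 genes tested, by the root mean square difference of log2(CPM + 1) after centring each gene on its own mean. They were Ddx60 (difference 0.81), an interferon-induced RNA helicase, H2-Q6 (0.82), an MHC class I gene, Bin2 (0.84), Oasl2 (0.86), an oligoadenylate synthetase-like gene, and Klf4 (0.88), a transcription factor. For F830016B08Rik they were Timp1 (0.66), a protease inhibitor, Gzmm (0.80), a granzyme, Pim1 (0.80), a kinase, Pik3r5 (0.82) and Ccl2 (0.83), a chemokine. With a pseudocount of 0.1 CPM in place of 1 CPM, 0 of 5 genes were shared for Gm4951 and 3 of 5 for F830016B08Rik, so these neighbours depend on how values near 0 are scaled. All values come from the same 12 libraries, and the likeness is given as a description.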

How the data were processed

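RNA-Seq was measured in 12 samples of sorted oligodendrocytes. Per the labels and the paper's methods, the authors made libraries with a SMART-Seq v4 kit, used Trimmomatic 0.32 for trimming and STAR 2.5.3a for alignment to GRCm38, and used featureCounts with GENCODE basic gene models to obtain the deposited raw counts, 1 row per symbol. Whether counting used strand or kept reads with several matches is not given in the sources used here, which leaves genes that overlap or are close copies uncertain. Groups and replicate numbers come from the labels, and 0 columns were left out.

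The 10 members and all gene lists were chosen with earlier results of these data known. Counts of calls leave out Gm4951 and F830016B08Rik, which were picked on their values, a choice made after seeing the data, as was leaving out each sample in their pooled ratios. The 17716 genes that reached 1 CPM in 4 or more of 12 samples were tested here with edgeR 4.0.16 (R 4.3.3; TMM factors, quasi-likelihood test on the 8 samples compared, Benjamini-Hochberg adjustment over all genes, threshold 0.05). The scripts were tested on simulated data. The text names all members, up to 3 genes per pathway list with the smallest p in Cnp-Cre Jab1fl/fl against WT, Ifng, Irf1, the 5 nearest genes of Gm4951 and of F830016B08Rik, and Cops5, Cdkn1a and Cnp; other genes are named where a small count falls on them. A gene of the transducer list is not reported here and was left out of the list counts. Alternatives were DESeq2 1.42.0 on 8 or 12 samples, DESeq2 size factors, other filters, all 12 samples in one fit, the replicate block, summed Tgtp genes and each sample left out. Positions and exon lengths are from GENCODE M21, promoters from RefSeq. Proteins were not analysed here. No sample was a repeat of another (the smallest chi-square per degree of freedom between replicates was 159.8). Samples are pools of 2 brains, and the p-values measure the spread between these pools.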

Additional observations from a re-analysis of the deposited data

Results flagged for a closer look

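Of 30 sets of 4 samples (10 genes in 3 genotypes), 2 had a sample far from the others by Dixon's ratio on log2(CPM + 1), where chance gives about 1 in 20. Gbp3 in Cnp-Cre Jab1fl/fl replicate 2 was at 16.7 CPM, against 62.6 to 71.9 CPM in the other 3 samples (ratio 0.903). F830016B08Rik in WT replicate 6 was at 0.0108 CPM, which is its 1 count where the other WT samples had 0 (ratio 1), and this is below the floor of 3 counts.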

How the results depend on the processing

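Of the 8 genes not picked on their values, 5 were called in Cnp-Cre Jab1fl/fl against WT, and 4 to 6 when each sample was left out. In those fits edgeR called 504 to 1196 of all 17716 genes as higher (2.84% to 6.75%), in place of 919. With the replicate block 3 of the 8 were called, in a fit that called 420 of all genes as higher. Iigp1, Igtp and Gbp3 were called in 16 of 16 alternatives. In double mutants against WT (0 of 8) it was 6 with DESeq2 on 8 samples, 7 with DESeq2 on 12 samples, 4 with edgeR on 12 samples, 3 with a mean of at least 10 CPM and 0 to 4 with a sample left out. Over all genes 663, 761, 157 and 123 were called as higher in the first 4 of these fits and 1 to 202 with a sample left out. With the replicate block it stayed at 0, in a fit that called 1 gene in all. The pathway lists had 18 to 27 genes called in Cnp-Cre Jab1fl/fl against WT with a sample left out (25 with all). In double mutants against WT they had 1, which became 2 with DESeq2 size factors, 25 with DESeq2, 0 without a filter and 0 to 14 with a sample left out, and against Cnp-Cre Jab1fl/fl 0, which became 3 with DESeq2. The cause was not tested.

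Between the mutant genotypes, where none of the 8 was called, signs turned. The log2 fold change became -0.0307 for Iigp1 with a mean of at least 10 CPM, and with the replicate block -0.91 for Iigp1, -0.51 for Tgtp1 and -0.74 for Tgtp2. With a sample left out it ranged from -0.37 to 0.39 for Igtp, -0.93 to 0.35 for Iigp1, -0.37 to 0.41 for Tgtp1, -0.59 to 1.06 for Tgtp2 and -0.55 to 0.23 for Gbp2, and the summed Tgtp difference from -0.59 to 0.31. Same-numbered samples did not deviate together (r from -0.19 to 0.08 over 8 pairs). The labels give only the number, and whether such samples shared a sort or a library step was not tested. The steps on proteins could not be run. Levels near 0 in WT are limited by depth to 3 counts per sample.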

Other observations

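Several IRG genes were below the filter and entered no test. Gm4841, which lies between Gm4951 and F830016B08Rik on the other strand, was at 0.344, 0.233, 4.06 and 7.48 CPM in Cnp-Cre Jab1fl/fl replicates 1 to 4. It was at 0.0427, 0.150, 1.41 and 0.0837 CPM in double-mutant replicates 1, 2, 3 and 5, and at 0 to 0.00906 CPM in WT. Cnp-Cre Jab1fl/fl replicate 4, the lowest mutant sample for both of its neighbours, was thus the highest for Gm4841. Gm12185, which shares exon bases with Tgtp1, had 0.25 to 4.22 CPM in Cnp-Cre Jab1fl/fl, 0 to 0.00974 CPM in double mutants and 0 to 0.791 CPM in WT. These genes were chosen after their values were seen, and the differences were not tested.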
